A study of Rattus norvegicus with 20 samples.

Results

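A set of 10 genes of plasma lipoprotein assembly was followed in the livers of 20 male rats. They were the apolipoprotein genes Apoa1, Apoa2, Apoa4, Apoa5, Apob, Apoc1, Apoc2, Apoc3 and Apoe, and Mttp, which encodes the large subunit of the microsomal triglyceride transfer protein. The 10 genes were taken by name from a deposited table of 32883 rat genes, in which each name stood once. RNA was sequenced from 1 library per rat, with 5 rats in each of 4 groups. KYDS+BGZ_L rats received hydrocortisone at 25 mg/kg together with BGZ_L powder at 0.9 g/kg. KYDS rats received hydrocortisone at 25 mg/kg, a glucocorticoid dosing used as a model of kidney-yang deficiency syndrome. BGZ_L rats were given the powder alone at 0.9 g/kg, which the series title ties to Psoraleae Fructus, and CON rats received 0.5% CMC-Na. The labels give no strain, age or duration of dosing, and they do not say whether the drugged rats also received CMC-Na. A model made by hydrocortisone dosing holds the direct effects of the drug together with those of the syndrome, and these cannot be told apart.

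Very low density lipoprotein (VLDL) is built in the hepatocyte around a single molecule of apolipoprotein B, which the microsomal triglyceride transfer protein loads with lipid in the endoplasmic reticulum. The smaller exchangeable apolipoproteins are picked up later and decide what happens in blood: apolipoprotein C-II activates lipoprotein lipase, C-III restrains clearance and E binds hepatic receptors. Apolipoproteins A-I and A-II are the main proteins of high density lipoprotein (HDL). Glucocorticoids are known to raise VLDL secretion by rat hepatocytes.

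Several of these genes sit in clusters. In RefSeq's order of rat protein-coding genes (assembly GRCr8), Apoc2, Apoc4, Apoc1 and Apoe follow one another on chromosome 1, and Apoa1, Apoc3, Apoa4 and Apoa5 follow one another on chromosome 8. A RefSeq promoter table of the same build held 5 of the 10 genes. For 4 of them, chosen because at least 1 hydrocortisone comparison below called them and because they represent both clusters, the 250 bases before the first listed start site are printed 5′ to 3′ on the gene's strand. Apoe, which was also called, is not printed, as Apoc2 and Apoc1 stand for its cluster. Capitals mark matches to the searched letters described after the sequences.
Apoc2, chr1:88462366-88462615, minus strand: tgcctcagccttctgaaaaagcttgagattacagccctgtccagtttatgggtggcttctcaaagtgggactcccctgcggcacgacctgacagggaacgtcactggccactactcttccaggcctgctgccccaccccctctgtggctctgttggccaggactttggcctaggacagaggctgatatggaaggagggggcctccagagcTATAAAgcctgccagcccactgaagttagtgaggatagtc
Apoc1, chr1:88478306-88478555, minus strand: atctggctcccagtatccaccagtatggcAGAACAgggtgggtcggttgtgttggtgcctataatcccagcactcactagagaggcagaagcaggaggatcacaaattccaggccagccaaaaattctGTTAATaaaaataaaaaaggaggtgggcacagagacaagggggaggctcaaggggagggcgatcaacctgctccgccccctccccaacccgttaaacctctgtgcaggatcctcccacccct
Apoa4, chr8:55435529-55435778, plus strand: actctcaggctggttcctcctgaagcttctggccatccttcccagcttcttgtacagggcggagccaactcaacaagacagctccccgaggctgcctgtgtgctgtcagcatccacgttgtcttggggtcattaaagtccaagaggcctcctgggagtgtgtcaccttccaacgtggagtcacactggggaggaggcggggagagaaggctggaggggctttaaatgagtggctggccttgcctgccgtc
Apoa5, chr8:55457621-55457870, plus strand: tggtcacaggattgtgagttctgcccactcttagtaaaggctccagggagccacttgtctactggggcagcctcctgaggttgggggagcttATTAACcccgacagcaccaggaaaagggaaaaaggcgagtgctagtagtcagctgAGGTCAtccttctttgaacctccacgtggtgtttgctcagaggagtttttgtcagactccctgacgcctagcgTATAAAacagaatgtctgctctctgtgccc

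Exact letters were searched in the full table windows, which run from 250 bases before to 50 bases after a start site, and the positions given are for the first listed start site of each gene. The TATA box was searched as TATAAA on the gene's strand. Apoc2 carried it with its first base at -40 and Apoa5 at -30. The nuclear receptor half-site was searched as AGGTCA on both strands, and of the 4 genes printed Apoa5 carried it, at -103. The glucocorticoid receptor half-site was searched as TGTTCT on both strands, and Apoc1 carried it at -221 in its reverse reading. The letters GTTAAT of the HNF1 site were found at -122 in Apoc1 and, in reverse reading, at -158 in Apoa5. Letters of the HNF4 half-site, CAAAG, are not capitalised and were found 2 times in that window of Apoc2 and 1 time, at -92, in that of Apoa5. The window of a second listed start site of Apoa5 held CAAAG 3 times and TATAAA at -184, and that of a second start site of Apoc1 held GTTAAT at -207. No match in these 4 promoters overlapped another. The full palindromic glucocorticoid response element was found in none of the 5 genes, nor did the Apoa4 and Apoe windows hold any of the other motifs. Over 33469 rat promoters of the same length, 8.8% held TATAAA and 16.2% held AGGTCA. The share was 20.7% for TGTTCT and 7.45% for GTTAAT, and it was 53.8% for CAAAG. The full response element was in 0.0149% of the promoters. A match describes letters in a window and nothing about binding.

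Values are TPM, transcript abundances scaled by transcript length, so that levels of different genes can be set side by side. Libraries were brought to a common scale with a trimmed mean of their log ratios. The unit was inferred from the deposited values, which sum to 914343 to 983962 per library, and the depth in reads is unknown. The mitochondrially encoded genes took a mean of 48.9% of TPM in KYDS+BGZ_L, 42.4% in KYDS, 67.3% in BGZ_L and 75.1% in CON livers, with 90.1% in CON 2. Scaling factors were lowest in CON 2 (0.228) and BGZ_L 3 (0.348), where the nuclear genes rest on the smallest part of the library. BGZ_L 2 had the highest summed level of the 8 Kupffer cell markers, 795 TPM, where no other library exceeded 214 TPM. Fold changes are log2 differences ± SE of log2(scaled TPM + 0.5) from 1 limma model over all 20 libraries and 11958 tested genes. The added constant understates differences of genes with low values. P-values are two-sided and adjusted over all 11958 genes by the Benjamini-Hochberg method, with a threshold of 0.05. All 10 genes were tested. The labels do not say more of the rats within a group than a number, so p-values measure the spread between these libraries.

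Hydrocortisone was tested without BGZ_L (KYDS against CON) and on top of it (KYDS+BGZ_L against BGZ_L), and in both comparisons every one of the 10 fold changes was above 0. Apoa4, Apob, Apoc2 and Mttp rose in both. Apoa5, Apoc1, Apoc3 and Apoe rose in the second comparison alone, a difference that the interaction test below did not call. Apoa1 and Apoa2 passed in neither. In KYDS livers 4 of the 10 genes were thus higher than in CON livers, against 3.24% of all tested genes, and 0 of 10 were lower, against 2.98%. In KYDS+BGZ_L livers 8 of 10 were higher than in BGZ_L livers, against 8.72% of all tested genes, and 0 of 10 were lower, against 8.49%. At an unadjusted p below 0.05 the limma counts were 7 and 9 of 10 genes, all higher. Over all 11958 tested genes they were 2873 and 3852, in either direction. Libraries of the groups did not overlap for 2 of 10 genes in the first comparison, against 3.32% of all tested genes, and for 6 of 10 in the second, against 7.17%. The median log2 fold change of the 10 genes was 1.48 for KYDS against CON and 1.82 for KYDS+BGZ_L against BGZ_L, where the medians over all tested genes were 0.05 and 0.06. These are descriptions of 10 genes that vary together from library to library, not 10 independent results. In whole liver, fewer cells of a type and less RNA per cell cannot be told apart.

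The first count was sensitive to single libraries. It fell to 0 of 10 without any 1 of KYDS 1, KYDS 2, KYDS 3, KYDS 5, CON 1, CON 2 or CON 3, to 2 of 10 without KYDS+BGZ_L 3, KYDS+BGZ_L 5, BGZ_L 2, BGZ_L 4, BGZ_L 5 or CON 5, and was 8 of 10 without KYDS 4. In the 7 fits with 0 calls, 5 to 7 of the 10 genes had an unadjusted limma p below 0.05. Over the 20 fits that each left out 1 library, all fold changes stayed above 0 except that of Apoa2 without CON 3, which was -0.030. The second count ranged from 5 of 10, without KYDS+BGZ_L 4, to 9 of 10. The calls over all tested genes moved as well. In either direction they ranged from 221 to 1067 genes in the first comparison and from 1103 to 2525 in the second.

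**Figure D1:**
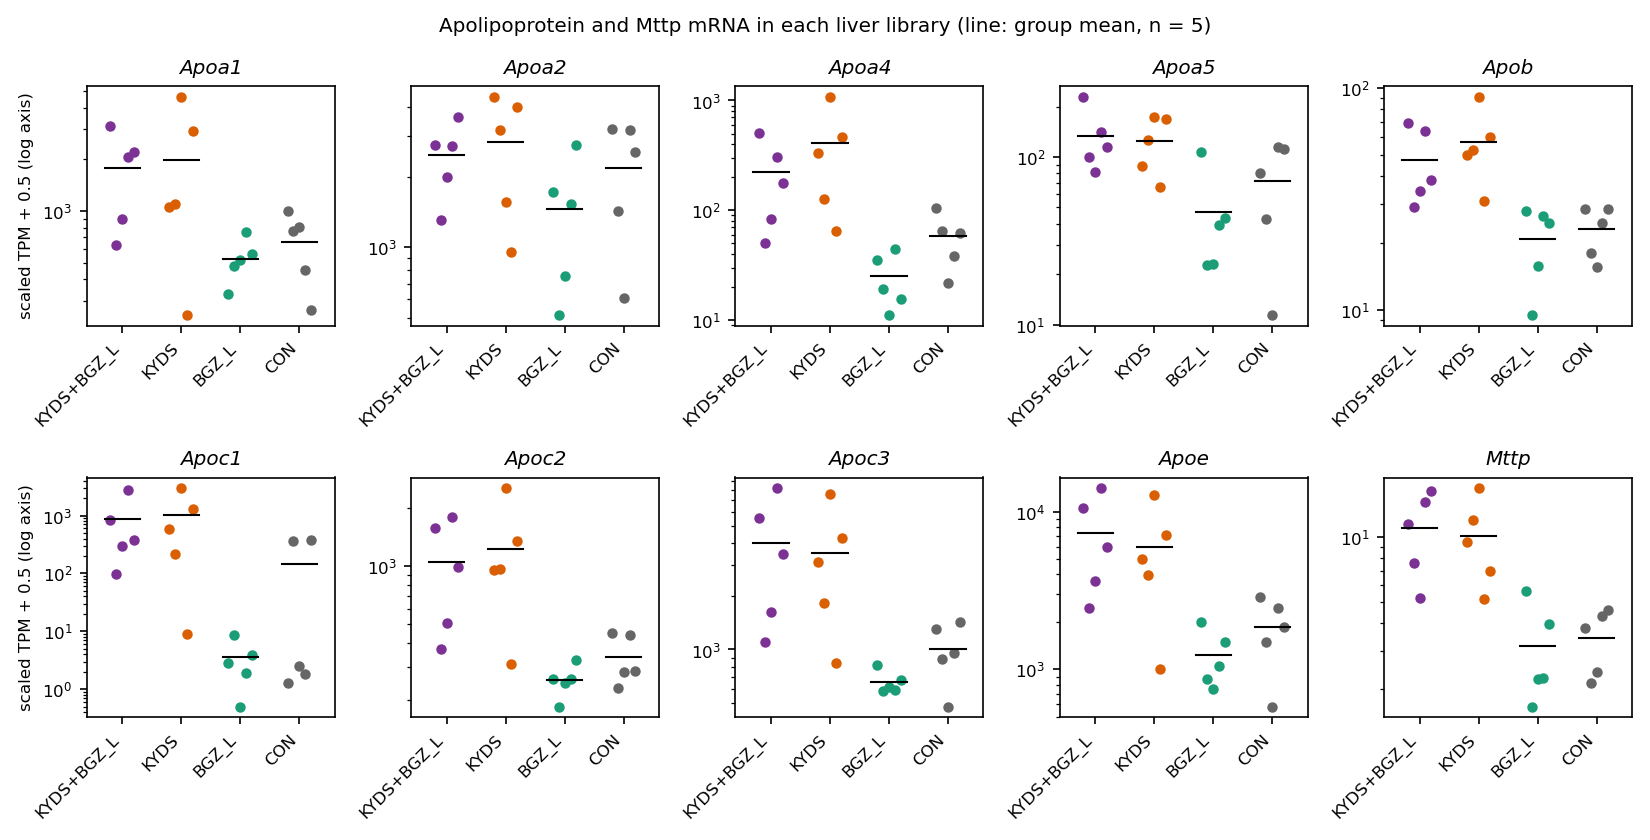
Scaled TPM plus 0.5 of each gene on a log axis, with 1 point per liver library in KYDS+BGZ_L, KYDS, BGZ_L and CON groups and a line at the mean of 5 libraries. For Apob, all 10 libraries with hydrocortisone (lowest 28.6 TPM) lay above the 10 without (highest 28.0 TPM), while Apoc1 was near 0 in all BGZ_L and 3 CON libraries.

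Apob encodes the structural protein of VLDL. It had 49.1, 51.8, 90.49, 30.3 and 59.54 TPM in KYDS 1 to 5, against 28.02, 17.6, 15.1, 24.1 and 27.9 TPM in CON 1 to 5. With BGZ_L given to both groups, the levels were 69.1, 28.6, 33.7, 63.6 and 38.1 TPM in KYDS+BGZ_L 1 to 5, against 27.3, 8.9996, 15.2, 26.04 and 24.3 TPM in BGZ_L 1 to 5. Neither pair of groups overlapped, and Apob was the 1 gene of the 10 in which every library with hydrocortisone lay above every library without, a pattern seen in 0.753% of all tested genes. The gap between the nearest libraries was narrow, from 28.6 TPM in KYDS+BGZ_L 2 to 28.0 TPM in CON 1. Apob averaged 56.3 ± 21.9 TPM in KYDS and 22.6 ± 5.93 TPM in CON livers (SD, n = 5 each), a log2 fold change of 1.26 ± 0.35 (limma, adjusted p = 0.0389). The means were 46.6 ± 18.4 TPM in KYDS+BGZ_L and 20.4 ± 7.92 TPM in BGZ_L livers, a log2 fold change of 1.19 ± 0.35 (adjusted p = 0.0235). The KYDS call held in 13 of 20 fits that left out 1 library.

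Mttp, whose protein transfers lipid onto nascent apolipoprotein B, had the lowest level of the 10 genes in every group mean. Its levels were 9.02, 11.45, 16.2, 4.70 and 6.44 TPM in KYDS 1 to 5, against 3.30, 1.62, 1.90, 3.81 and 4.10 TPM in CON 1 to 5. In KYDS+BGZ_L 1 to 5 Mttp stood at 10.9, 7.06, 4.74, 14.04 and 15.8 TPM, against 5.11, 1.16, 1.72, 1.76 and 3.49 TPM in BGZ_L 1 to 5. KYDS and CON livers did not overlap, and in the second comparison KYDS+BGZ_L 3 lay below BGZ_L 1. The log2 fold change was 1.497 ± 0.39 in KYDS against CON (limma, adjusted p = 0.0324) and 1.83 ± 0.39 in KYDS+BGZ_L against BGZ_L (adjusted p = 0.00511). The second had the smallest adjusted p of the 10 genes in that comparison and passed in 20 of 20 fits with 1 library left out, whereas the first passed in 13 of 20.

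Apoc2, the activator of lipoprotein lipase, rose in both comparisons. It had 955, 971, 2543, 309 and 1345 TPM in KYDS 1 to 5, against 449, 232, 282, 439 and 283 TPM in CON 1 to 5. KYDS 4 lay among the CON libraries and the other 4 KYDS libraries lay above all of them. Values in KYDS+BGZ_L 1 to 5 were 1574, 371, 503, 1802 and 993 TPM, against 257, 185, 245, 257 and 326 TPM in BGZ_L 1 to 5, with no overlap. The log2 fold changes were 1.61 ± 0.48 (limma, adjusted p = 0.0493) without and 1.81 ± 0.48 (adjusted p = 0.0145) with BGZ_L in both groups. The first of these passed in 5 of 20 fits with 1 library left out.

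Apoc3, the inhibitor of triglyceride clearance, was among the most abundant of the 10 transcripts. It had 5544, 1108, 1621, 8129 and 3475 TPM in KYDS+BGZ_L 1 to 5, against 812, 582, 610.1, 588 and 672 TPM in BGZ_L 1 to 5. These groups did not overlap, and the BGZ_L libraries lay close together while the KYDS+BGZ_L libraries spread widely. In KYDS 1 to 5 it had 3112, 1824, 7586, 839.6 and 4273 TPM, against 1302, 884, 475, 955 and 1428 TPM in CON 1 to 5. All KYDS libraries but KYDS 4 exceeded every CON library. The log2 fold change was 2.25 ± 0.55 for KYDS+BGZ_L against BGZ_L (limma, adjusted p = 0.00984) and 1.54 ± 0.55 for KYDS against CON, which did not pass (adjusted p = 0.0950).

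Apoc1, whose protein activates lecithin-cholesterol acyltransferase and slows particle uptake, had the widest range of the 10 genes. KYDS+BGZ_L 1 to 5 held 842, 97.46, 299.9, 2770.2 and 375 TPM, against 2.36, 8.08, 0, 1.42 and 3.42 TPM in BGZ_L 1 to 5. The lowest KYDS+BGZ_L library lay far above the highest BGZ_L library, and BGZ_L 3 was listed at 0. KYDS 1 to 5 held 586, 219, 2942, 8.62 and 1302 TPM, against 0.781, 359, 2.06, 1.33 and 375 TPM in CON 1 to 5. CON 2 and CON 5 stood with the hydrocortisone libraries and the other 3 CON libraries with BGZ_L, while KYDS 4 was close to the highest BGZ_L library. The log2 fold change was 7.60 ± 1.69 in KYDS+BGZ_L against BGZ_L (limma, adjusted p = 0.00666), with a 95% interval of 4.07 to 11.14. In KYDS against CON it was 4.48 ± 1.69 and did not pass (adjusted p = 0.114). CON 2 has the lowest scaling factor of all libraries, so its level rests on few nuclear transcripts.

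Apoe, the ligand by which remnant particles are taken up by hepatic receptors, had the highest mean of the 10 genes in both hydrocortisone groups. It had 10588, 2432, 3636, 14073 and 5981 TPM in KYDS+BGZ_L 1 to 5, against 2001, 865, 747, 1046 and 1489 TPM in BGZ_L 1 to 5. The groups did not overlap. The levels were 5036, 3946, 12789, 1002 and 7092 TPM in KYDS 1 to 5, against 2897, 1483, 579, 2466 and 1849 TPM in CON 1 to 5, and again KYDS 4 was the KYDS library inside the CON range. The log2 fold change was 2.39 ± 0.61 in KYDS+BGZ_L against BGZ_L (limma, adjusted p = 0.0122) and 1.46 ± 0.61 in KYDS against CON, which did not pass (adjusted p = 0.147). Apoe is also made by macrophages. The Kupffer cell markers were called for 1 of 8 genes in each comparison, Cd163, and the share of Apoe from such cells was not tested.

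Apoa4 encodes an apolipoprotein of chylomicrons, VLDL and HDL that rodents make in liver as well as in intestine. It had 331, 126, 1077, 63.8 and 468 TPM in KYDS 1 to 5, against 104, 63.99, 21.2, 38.003 and 61.9 TPM in CON 1 to 5. KYDS 4 lay within the CON range. With BGZ_L in both groups, KYDS+BGZ_L 1 to 5 had 504, 50.2, 82.97, 302 and 175 TPM, against 34.95, 18.7, 10.6, 44.01 and 15.1 TPM in BGZ_L 1 to 5, and no libraries overlapped. The log2 fold changes were 2.38 ± 0.70 (limma, adjusted p = 0.0480) and 2.88 ± 0.70 (adjusted p = 0.00979). The first passed in 5 of 20 fits with 1 library left out and the second in 20 of 20. Enterocyte markers were near absent: the 4 genes summed to at most 3.07 TPM in any library, and Alpi was listed at 0 in all 20.

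Apoa5, whose protein promotes triglyceride hydrolysis by lipoprotein lipase, was less abundant. It ranged over 81.4 to 228 TPM in KYDS+BGZ_L, against 22.3 to 107 TPM in BGZ_L livers, where BGZ_L 1 stood apart from the other 4 libraries (at most 42.6 TPM). It ranged over 65.4 to 173 TPM in KYDS, against 10.9 to 114 TPM in CON livers. Both pairs of groups overlapped. The log2 fold change was 1.66 ± 0.55 in KYDS+BGZ_L against BGZ_L (limma, adjusted p = 0.0425), a call that held in 13 of 20 fits with 1 library left out. In KYDS against CON it was 1.09 ± 0.55 and did not pass (adjusted p = 0.229).

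Both HDL structural genes missed the threshold in both comparisons. Apoa1 averaged 1992 ± 1773 TPM in KYDS and 657 ± 296 TPM in CON livers, with a log2 fold change of 1.14 ± 0.62 (limma, adjusted p = 0.268). The KYDS libraries ran from 246 TPM in KYDS 4 to 4629 TPM in KYDS 3 and spanned the whole CON range. In KYDS+BGZ_L the mean was 1778 ± 1017 TPM, against 526 ± 153 TPM in BGZ_L livers (1.57 ± 0.62, adjusted p = 0.0844), and the groups overlapped. Apoa2 averaged 2812 ± 1500.2 TPM in KYDS and 2194 ± 1141 TPM in CON livers, the smallest difference of the 10 genes (0.37 ± 0.54, 95% interval -0.75 to 1.498, adjusted p = 0.707). It averaged 2472 ± 858 TPM in KYDS+BGZ_L and 1451 ± 877 TPM in BGZ_L livers (0.93 ± 0.54, 95% interval -0.19 to 2.05, adjusted p = 0.243). Both intervals include 0 and a log2 value of 1, so a difference of the size seen for Apob is within the error. The difference between Apoa2 and the other genes was not tested.

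**Figure D2:**
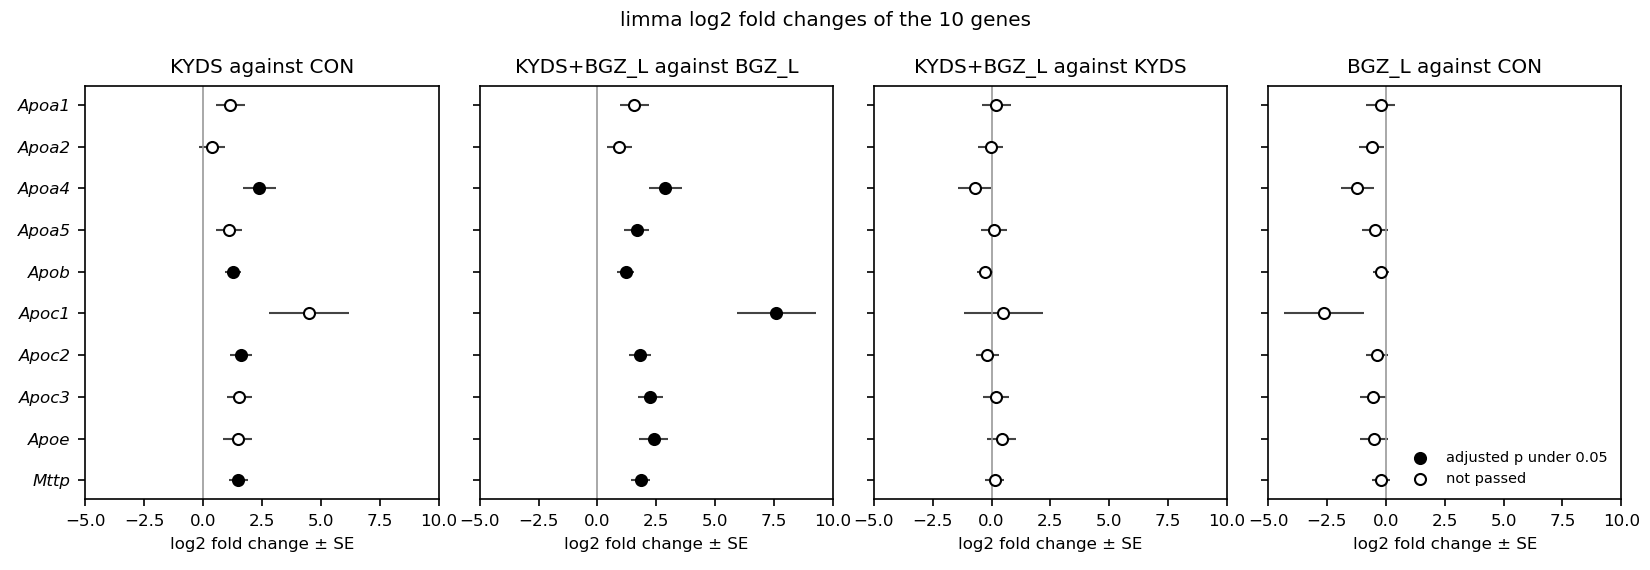
Log2 fold changes ± SE of the 10 genes from limma, in 4 panels: KYDS against CON, KYDS+BGZ_L against BGZ_L, KYDS+BGZ_L against KYDS and BGZ_L against CON. Filled circles passed an adjusted p of 0.05 (4, 8, 0 and 0 of 10), and fold changes in the 2 hydrocortisone panels are all above 0.

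BGZ_L powder was tested against the same background, with and without hydrocortisone, to ask whether it moved these genes. Comparing KYDS+BGZ_L with KYDS livers, limma called 0 of 10 genes in either direction, against 0.125% of all tested genes. Of the 10 genes 0 had an unadjusted p below 0.05, where 411 of the 11958 genes did. Fold changes ran from -0.72 for Apoa4 to 0.504 for Apoc1. The 95% interval was -0.99 to 0.45 for Apob, -0.69 to 0.95 for Mttp and -0.84 to 1.69 for Apoe, and differences of these sizes were within the error. In BGZ_L against CON livers limma called 0 of 10 genes, as it called 0% of all tested genes, and again 0 had an unadjusted p below 0.05, where 722 of the 11958 genes did. Group means lay on 1 side: all 10 were lower in BGZ_L than in CON livers, from -2.62 log2 for Apoc1 to -0.21 for Mttp and -0.21 for Apob, and every pair of groups overlapped. The interaction asks whether the hydrocortisone difference changed with BGZ_L. It was called for 0 of 10 genes, against 0.0335% of all tested genes. Again 0 of 10 had an unadjusted p below 0.05, where 449 of the 11958 genes did. The largest interaction values were 3.12 ± 2.40 for Apoc1 and 0.92 ± 0.86 for Apoe. The larger number of calls in the presence of BGZ_L is therefore not a shown difference between the 2 hydrocortisone comparisons.

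Over the 4 groups, the 2 hydrocortisone groups had the highest means for all 10 genes, CON came next and BGZ_L was lowest. KYDS was above KYDS+BGZ_L for 6 genes and below it for 4, with overlapping libraries each time. CON and BGZ_L overlapped for all 10 genes. Between the lower of the hydrocortisone groups and CON, libraries overlapped for 8 of 10 genes.

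The 10 transcripts together made up 4.38% ± 2.22 of nuclear TPM in KYDS+BGZ_L, 4.71% ± 2.12 in KYDS, 1.19% ± 0.846 in BGZ_L and 1.92% ± 1.02 in CON livers (SD, n = 5 each). Their order was alike in all groups at the low end, with Apob and Mttp rarest apart from Apoc1 in BGZ_L. At the high end Apoe led in KYDS+BGZ_L and KYDS livers and Apoa2 in BGZ_L and CON livers. Apoe took 40.1% ± 3.23 of the summed TPM of the 10 genes in KYDS+BGZ_L and 33.2% ± 3.55 in KYDS, against 29.1% ± 5.79 in BGZ_L and 27.9% ± 4.68 in CON livers. Apoa2 took 16.8% ± 6.55 in KYDS+BGZ_L and 21.1% ± 10.03 in KYDS, against 31.97% ± 10.4 in BGZ_L and 32.45% ± 7.88 in CON livers. Some neighbours in these orders, such as Apoa2 and Apoe in CON livers, were not separated beyond their spread. Others were: in KYDS+BGZ_L libraries Apoe took 35.3% to 43.9% and Apoc3, the next gene, 17.7% to 25.4%. Libraries of a group differed. Apoa2 took 4.68% in KYDS 3, where Apoe took 38.3%, and without KYDS 3 the mean share of Apoa2 in KYDS was 25.3% ± 4.62 (n = 4). Apoc2 took between 5.84% and 7.43% in the 4 group means, and from 4.07% to 10.08% in single libraries, both ends in CON. Shares are descriptions and were given no test.

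**Figure D3:**
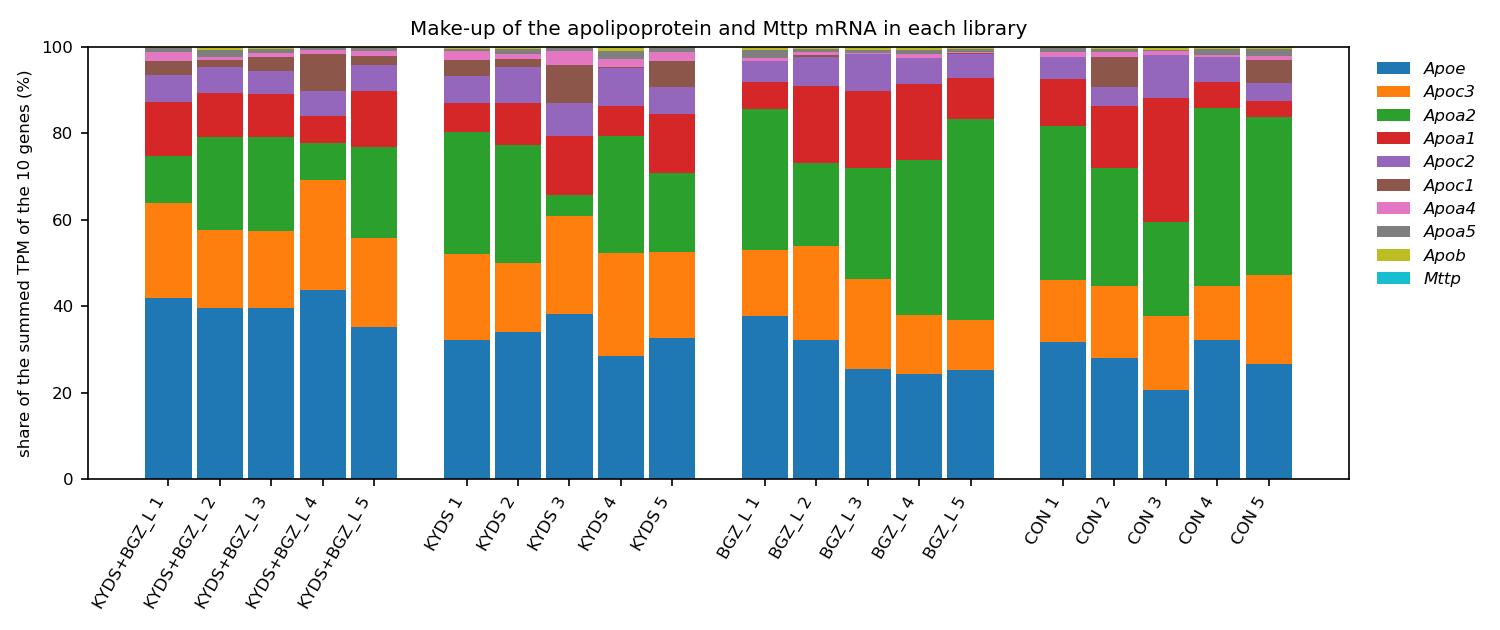
Share of the summed scaled TPM of the 10 genes in each of the 20 libraries, as stacked bars that add up to 100%, grouped as KYDS+BGZ_L, KYDS, BGZ_L and CON. Apoe holds a mean of 40.1% in KYDS+BGZ_L and 27.9% in CON livers, and Apoa2 holds 16.8% in KYDS+BGZ_L and 32.5% in CON livers.

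Levels were also set against albumin, a major secretory transcript of hepatocytes. The log2 ratio to Alb (deposited TPM of the gene over that of Alb, with 0.5 added to both) averaged -0.83 ± 0.11 for Apoe in KYDS+BGZ_L and -1.11 ± 0.24 in KYDS, against -0.80 ± 0.32 in BGZ_L and -1.07 ± 0.495 in CON livers. For Apoc3 it was -1.79 ± 0.21 and -1.82 ± 0.36 in KYDS+BGZ_L and KYDS, against -1.62 ± 0.29 and -1.86 ± 0.27 in BGZ_L and CON. For both genes the 4 group means of the ratio thus lay within 0.5 log2 of each other. For Apoa2 it was -2.19 ± 0.68 in KYDS+BGZ_L and -1.998 ± 1.45 in KYDS, against -0.70 ± 0.68 in BGZ_L and -0.88 ± 0.64 in CON livers. The KYDS mean of Apoa2 rested on KYDS 3, at -4.52, and was -1.37 ± 0.41 without it (n = 4), where the CON libraries ran from -1.67 to -0.0906. For Apoc1 the ratio was -4.48 ± 0.92 in KYDS+BGZ_L and -4.83 ± 1.75 in KYDS, against -9.30 ± 1.15 in BGZ_L and -7.81 ± 4.16 in CON livers. Without BGZ_L 3, which was listed at 0 and whose ratio rests on the added constant, the BGZ_L mean of Apoc1 was -9.12 ± 1.25 (n = 4). CON libraries were split, with CON 2 and CON 5 at -3.38 and -3.33, and without CON 1 their mean was -6.77. The ratio of Apoa4 was highest in KYDS, at -5.18 ± 0.36, with -6.04 ± 0.46 in KYDS+BGZ_L, -6.47 ± 0.56 in BGZ_L and -6.05 ± 0.39 in CON livers. The ratio of Apob was -7.92 ± 0.51 in KYDS+BGZ_L and -6.66 ± 0.35 in BGZ_L, with -7.50 ± 0.99 in KYDS and -7.22 ± 0.28 in CON. In that order it was -10.05 ± 0.68, -9.31 ± 0.59, -10.05 ± 1.12 and -9.81 ± 0.36 for Mttp. For Apoc2 it was -3.61 ± 0.04, -2.99 ± 0.32, -3.28 ± 0.48 and -3.39 ± 0.52. Apoa1 averaged -2.82, -1.97, -2.88 and -2.53, and Apoa5 -6.42, -5.65, -6.37 and -5.95. For Apob, Mttp, Apoc2, Apoa1 and Apoa5 these means were lower with hydrocortisone, except that of Apoc2 in KYDS against CON. The mean ratios of Apoc1 and Apoa4 were higher with hydrocortisone in both comparisons. These ratios do not depend on the scaling between libraries, and no test was made of them.

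The genes moved together across libraries. Over the 45 pairs of the 10 genes, Pearson's r of the log2 values in 20 libraries ran from 0.398 to 0.969 with a median of 0.795. With each group's mean removed it ran from 0.150 to 0.936 with a median of 0.652. All genes of a library share its scaling factor and its mitochondrial share, so these values describe common variation and were given no p. The 5 genes whose log2 profile was most like the mean profile of the members were C8g, which encodes a chain of complement component 8 (r = 0.982 and, with group means removed, 0.970), Serpinf1 (0.981 and 0.977), Alb (0.979 and 0.956), the fibrinogen chain Fga (0.978 and 0.949) and the vitamin K epoxide reductase gene Vkorc1 (0.976 and 0.952). Alb averaged 12826 ± 7884 TPM in KYDS+BGZ_L and 14223 ± 13067 TPM in KYDS, against 2054 ± 534 TPM in BGZ_L and 3584 ± 1114 TPM in CON livers. Its log2 fold change was 1.495 ± 0.59 in KYDS against CON (limma, adjusted p = 0.125) and 2.42 ± 0.59 in KYDS+BGZ_L against BGZ_L (adjusted p = 0.00966).

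**Figure D4:**
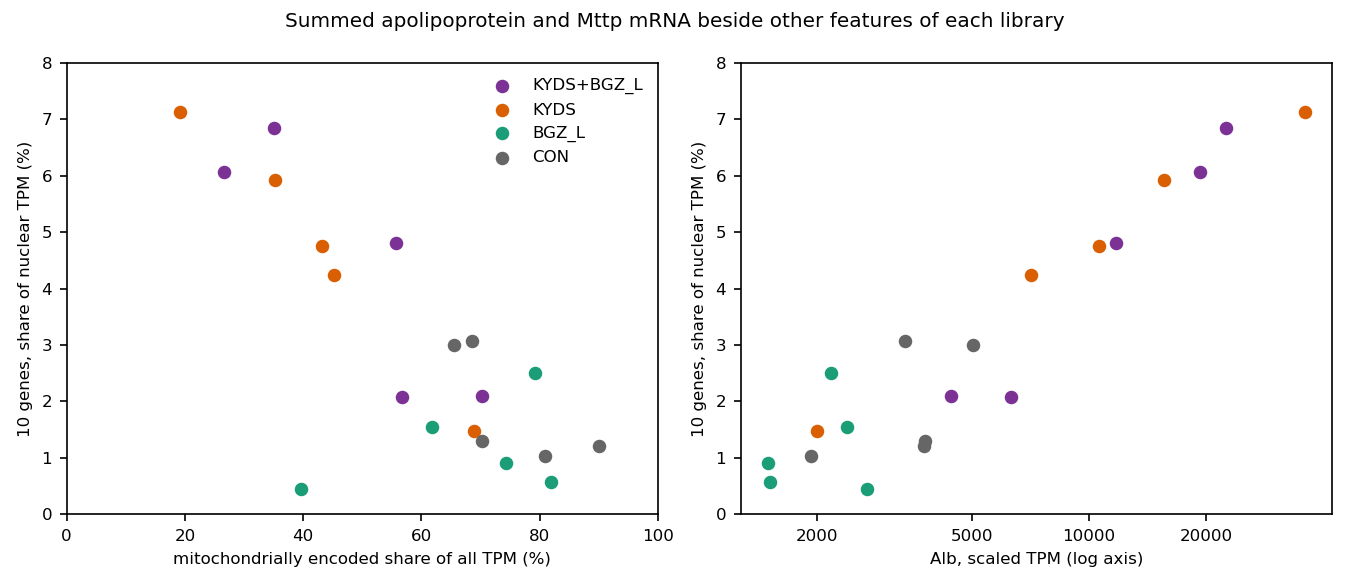
Summed share of the 10 genes in nuclear TPM (y axis, %) for each of the 20 libraries, against the mitochondrially encoded share of all TPM (left, %) and against Alb in scaled TPM (right, log axis). KYDS 3, with 19.2% mitochondrial TPM, holds the highest share of the 10 genes at 7.12%, and BGZ_L 1 the lowest at 0.446%.

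Hepatocyte markers are set beside all tested genes, of which 3.24% were higher in KYDS against CON. In KYDS+BGZ_L against BGZ_L 8.72% were higher and 8.49% lower. Of 8 hepatocyte markers, 2 were higher in KYDS than in CON livers (Ttr and Tf), and in KYDS+BGZ_L against BGZ_L livers 4 were higher (Alb, Ttr, Serpina1 and Fgb) and Tat was lower. Their summed level ranged over 8939 to 45004 TPM in KYDS+BGZ_L and 6458 to 61933 TPM in KYDS, against 4895 to 5981 TPM in BGZ_L and 4668 to 8830.0 TPM in CON livers. None was at 0 in all libraries. With values scaled to the hepatocyte markers instead, 1 of 10 members was called in KYDS against CON and 5 of 10 in KYDS+BGZ_L against BGZ_L, and the sign of Apoa2 turned to -0.66 and -0.024. Over 12133 tested genes that scaling called 58 higher and 2746 lower in the first comparison, and 188 and 2819 in the second. With the log2 ratio of nuclear to mitochondrially encoded TPM as a covariate, the counts were 0 and 5 of 10, and the median fold change of the members was 0.24 and 1.24. Of 11958 tested genes that fit called 17 higher and 4 lower in KYDS against CON, and 300 and 367 in KYDS+BGZ_L against BGZ_L. In the covariate fit Apoa2, Apoa5 and Apoe were below 0 in KYDS against CON (-0.39, -0.21 and -0.20).

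Markers of the other liver cell types were read in the same way. Among all tested genes 6.22% passed in KYDS against CON and 17.2% in KYDS+BGZ_L against BGZ_L, in either direction. In both comparisons 1 of 8 Kupffer cell markers was higher, and 0 of 5 cholangiocyte, 0 of 4 endothelial, 0 of 5 stellate cell and 0 of 3 erythroid markers passed. Of these 17 markers, 2 in KYDS against CON and 3 in KYDS+BGZ_L against BGZ_L had an unadjusted limma p below 0.05, with 0.151 and 0.107 as the smallest adjusted p. Over all 11958 tested genes 2873 and 3852 had an unadjusted p below 0.05. In KYDS against CON the 2 markers with the smallest p were Sox9 (-0.78) and Krt7 (-0.63) of cholangiocytes, Stab2 (0.62) and Lyve1 (-0.16) of endothelium, Dcn (-0.71) and Lrat (-0.73) of stellate cells, and Hbb (0.58) and Hba-a1 (0.33) of erythroid cells. For KYDS+BGZ_L against BGZ_L they were Epcam (1.000) and Krt19 (0.86), Clec4g (-0.91) and Lyve1 (0.48), Reln (-0.84) and Des (-0.97), and Hba-a1 (0.38) and Alas2 (-0.36). The 2 named stellate cell markers were below 0 in both comparisons, while the 5 of that list reached up to 0.041 and 0.47. The named cholangiocyte markers were below 0 in the first comparison and above 0 in the second. The 5 of that list reached up to 0.33 in the first and down to -0.13 in the second. The erythroid pair was above 0 in the first, and the other pairs were mixed. The Kupffer markers summed to 61.1 to 214 TPM in KYDS+BGZ_L and 83.2 to 209 TPM in KYDS, against 60.2 to 795 TPM in BGZ_L and 54.2 to 99.3 TPM in CON livers. Without BGZ_L 2, the library with the high Kupffer sum, 6 of 10 members passed in KYDS+BGZ_L against BGZ_L, all higher. The part of these markers in the other results was not tested.

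**Figure D5:**
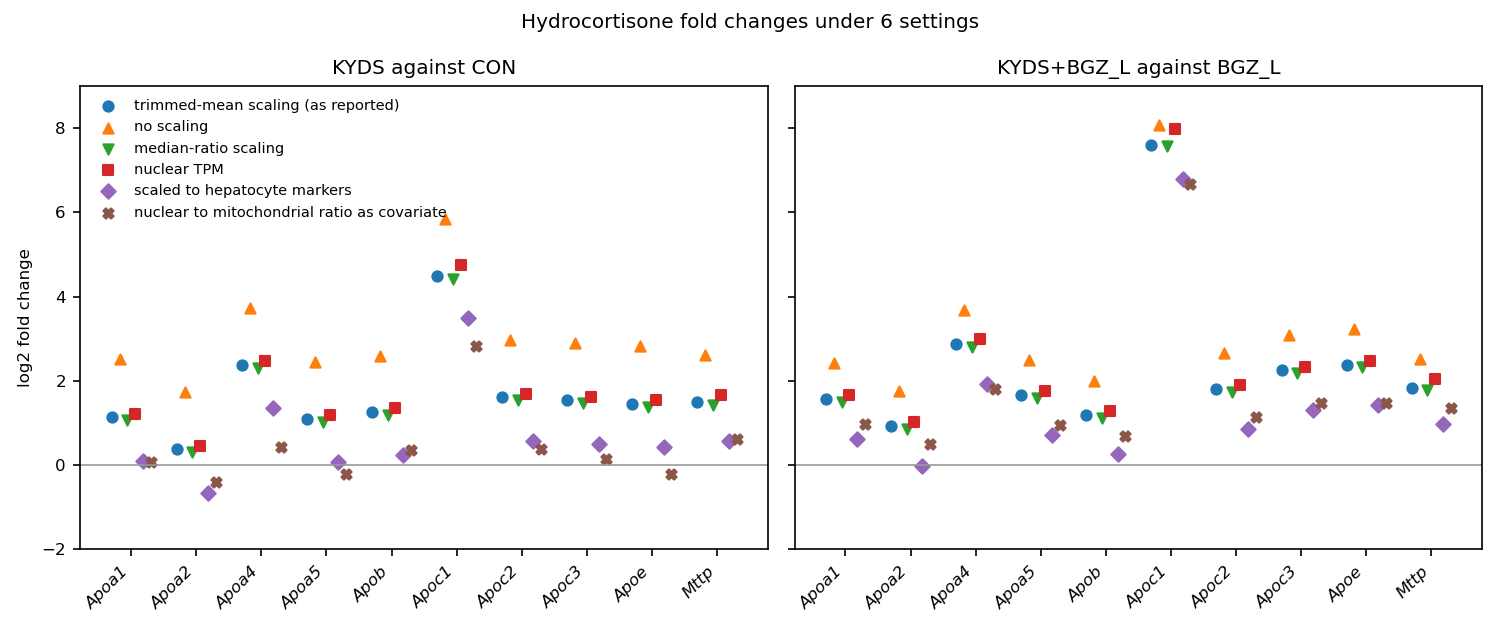
Log2 fold changes of the 10 genes in KYDS against CON (left) and KYDS+BGZ_L against BGZ_L (right) under 6 settings, each with its own symbol. Apoa2 lies at or below 0 with scaling to hepatocyte markers (-0.66 and -0.024), and in KYDS against CON the covariate fit also puts Apoa2, Apoa5 and Apoe below 0.

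Genes that act with the apolipoproteins were read from 6 lists. The counts of each list stand beside the shares of all tested genes. These were 3.24% higher and 2.98% lower in KYDS against CON, and 8.72% and 8.49% in KYDS+BGZ_L against BGZ_L. In the list of VLDL assembly in the secretory pathway, 3 of 16 genes were higher in KYDS than in CON livers (list median 0.81), and 9 were higher and 1 lower in KYDS+BGZ_L than in BGZ_L livers (median 1.15). Dgat2, which makes triglyceride, rose by 1.46 ± 0.32 log2 in KYDS against CON (limma, adjusted p = 0.0148) and by 1.14 ± 0.32 in KYDS+BGZ_L against BGZ_L (adjusted p = 0.0187). Plin2, which coats lipid droplets, rose by 1.24 ± 0.35 (adjusted p = 0.0420) and 1.36 ± 0.35 (adjusted p = 0.0123). The chaperone Hspa5 was the other gene higher in KYDS (1.21). Aadac, a lipase of the endoplasmic reticulum, and Sec24a, a component of the vesicle coat COPII, had the smallest p in the second comparison, at 1.94 and -2.04 log2. Sec24a was thus lower where the apolipoprotein genes were higher.

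Among 8 tested genes of HDL remodelling, 2 were higher in KYDS than in CON livers and 3 in KYDS+BGZ_L than in BGZ_L livers (medians 0.82 and 0.81). Lipc, the hepatic lipase gene, rose by 1.56 ± 0.30 (limma, adjusted p = 0.00832) and 1.67 ± 0.30 (adjusted p = 0.00237). Bmp1, whose protease cleaves the propeptide of apolipoprotein A-I, rose by 1.78 ± 0.500 (adjusted p = 0.0424) and 1.55 ± 0.500 (adjusted p = 0.0378). The HDL enzyme gene Pon1 was the third in the second comparison (1.78).

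Lipoprotein lipase regulators were higher for 2 of 7 genes in KYDS against CON and for 4 of 7 in KYDS+BGZ_L against BGZ_L (medians 0.54 and 1.18). Creb3l3, a transcription factor that drives apolipoprotein genes of triglyceride clearance in mouse liver, rose by 1.34 ± 0.38 (limma, adjusted p = 0.0449) and 1.23 ± 0.38 (adjusted p = 0.0325). Sel1l, of the endoplasmic reticulum degradation machinery, rose by 1.71 ± 0.46 (adjusted p = 0.0365) and 1.65 ± 0.46 (adjusted p = 0.0199). The lipase inhibitor gene Angptl4 (2.16) was also higher in the second comparison.

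Of 10 receptor and uptake genes, Sdc1, a heparan sulphate proteoglycan that binds remnants, was the 1 higher in KYDS than in CON livers (1.54 ± 0.45, limma, adjusted p = 0.0481), and Lrpap1 came next (0.78, adjusted p = 0.115). Higher in KYDS+BGZ_L than in BGZ_L livers were Lsr, a receptor for triglyceride-rich particles (2.07 ± 0.55, adjusted p = 0.0149), and Vldlr (0.65 ± 0.21, adjusted p = 0.0408), 2 of the 10. The list medians were 0.62 and 0.60. No receptor passed in both comparisons.

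The remaining apolipoprotein genes and the Apob editing genes made up a list of 9 tested genes. In KYDS against CON, limma called 0 of 9, while 5 had an unadjusted p below 0.05 (median 0.86), as 2873 of all 11958 tested genes did. The smallest adjusted p was 0.0776, that of Apobec1, followed by 0.133 for Apof. With BGZ_L in both groups, 4 were higher (Apoh 1.81, Apom 2.05, Apon 1.27 and Clu 1.87) and 1 lower (median 1.07). The lower gene was Apobec1, the cytidine deaminase that edits Apob mRNA and so yields the short form of the protein, in rat liver as well as in intestine. Apobec1 averaged 2.59 ± 0.378 TPM in KYDS+BGZ_L and 7.49 ± 1.99 TPM in BGZ_L livers, a log2 fold change of -1.33 ± 0.26 (adjusted p = 0.00332). It averaged 2.87 ± 0.847 TPM in KYDS and 5.30 ± 1.82 TPM in CON livers (-0.77 ± 0.26, adjusted p = 0.0776), which did not pass. Editing itself cannot be read from gene-level values.

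Transcription factors of apolipoprotein genes made up the last list. In KYDS against CON 2 of 22 were higher, Srebf1 and Foxa3 (1.13), and in KYDS+BGZ_L against BGZ_L 3 were higher (Srebf1, Foxa1 and Foxa2) and 3 lower (medians 0.41 and 0.14). Srebf1, the regulator of fatty acid synthesis, rose by 2.05 ± 0.49 (limma, adjusted p = 0.0226) and 1.82 ± 0.49 (adjusted p = 0.0162). The 3 lower genes were the clock repressor Nr1d1 (-2.52 ± 0.30, adjusted p = 4.48e-05), the coactivator Ppargc1a (-3.01 ± 0.63, adjusted p = 0.00470) and Ppara (-1.99 ± 0.59, adjusted p = 0.0270). Nr1d1, which in mouse and human represses Apoc3, was also lower in KYDS+BGZ_L than in KYDS livers (-2.04 ± 0.30, adjusted p = 0.00413) and was called in the interaction (-2.80 ± 0.42, adjusted p = 0.0113). Apoc3 itself differed by 0.17 ± 0.55 between KYDS+BGZ_L and KYDS livers (95% interval -0.97 to 1.32) and did not pass (limma, adjusted p = 0.999). In KYDS+BGZ_L against BGZ_L livers Apoc3 rose by 2.25 ± 0.55. A link between Nr1d1 and Apoc3 was not tested. Among the listed genes named here, Hspa5, Aadac, Sec24a, Pon1, Angptl4, Foxa1, Foxa2, Foxa3, Nr1d1, Ppargc1a, Ppara, Tf, Serpina1, Fgb, Tat, Apoh, Apom and Apon were chosen after their values were seen.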

How the data were processed

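Livers of 20 rats were sequenced in pairs and only read 1 was used by the authors, per the labels. The deposited values were read as TPM, from their 2 decimals and like sums in all libraries, although the table is named for counts. No source used here gives the authors' aligner or counter. Mouse builds (GRCm38, mm10, GRCm39) stand in the submitters' processing notes, yet every gene identifier is of rat, so the build used is unknown. Whether counting used strand is not stated. Depth is unknown and no count test was run. TPM were scaled by an unweighted trimmed mean of log ratios (trimming 30% of the ratios and 5% of the levels from either end). A gene needed 0.5 scaled TPM or more in 5 or more libraries, which 11958 met. These were fitted as log2(scaled TPM + 0.5) with 4 group means in limma 3.58.1 (trend, robust, 16 residual degrees of freedom). The limma contrast of KYDS against CON was tested on simulated data in which genes varied independently. The scaling and the filter were not tested in this way. Promoters and gene order came from RefSeq (GRCr8); all 10 genes matched the gene table and 5 were in that of promoters. The genes and lists were chosen with earlier results of these data known. From each list the genes that passed in both hydrocortisone comparisons were named, or else those with the 2 smallest p. Listed genes Sar1a, Mia3, Saa4, Lpa, Mlxipl, Ahsg, Pecam1 and Sis were not analysed here, and 1 gene counted in the lists is not reported by name. Figures were drawn with matplotlib 3.10.9 under Python 3.11.15, and fits were run in R 4.3.3 (data.table, version 1.17.8).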

Additional observations from a re-analysis of the deposited data

Results flagged for a closer look

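Libraries far from the other 4 of their group were looked for in 40 sets, 10 genes in 4 groups, with Dixon's gap ratio at its 95% critical value of 0.71 for 5 libraries. For independent, normally distributed values chance flags about 1 set in 20, and 2 of 40 were found. The TPM used were not logged and the genes vary together, so that rate need not hold here. Apoa5 in BGZ_L 1 stood at 107 TPM, where the other 4 BGZ_L libraries had 22.3 to 42.6 TPM. Apoc1 in KYDS+BGZ_L 4 stood at 2770.2 TPM, where the other 4 KYDS+BGZ_L libraries had 97.5 to 842 TPM.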

How the results depend on the processing

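Of the 10 genes, 4 passed in KYDS against CON. Under other settings the count was 9 with no scaling, 2 with median-ratio scaling, 0 with nuclear TPM, 1 with scaling to hepatocyte markers, 2 with a constant of 0.1, 4 with a constant of 1, 0 with no filter on low values, 0 with the nuclear to mitochondrial ratio as covariate, 0 without CON 2 and BGZ_L 3, and 0 when only the 2 groups were fitted. Leaving out 1 library gave 0 to 8. Counts of 0 came with 5 to 8 genes at an unadjusted limma p below 0.05, except 0 in the covariate fit. Of the genes 8 passed in KYDS+BGZ_L against BGZ_L, 5 with scaling to hepatocyte markers, 5 with the covariate, 6 to 9 otherwise, and 5 to 9 with 1 library left out. Apoa4, Apoc1, Apoc3 and Apoe passed there in all 11 other settings and all 20 fits with 1 library left out. The other 3 comparisons gave 0 members throughout. In the covariate fit, though, 3 of 10 had an unadjusted limma p below 0.05 in BGZ_L against CON and 2 of 10 in the interaction. The members' median log2 value there was -0.80 and 1.03, where the medians over all tested genes were -0.02 and 0.0008. The cause of these differences was not tested.

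The labels do not say whether replicate numbers pair libraries. With group means removed, 7 of 30 correlations between same-numbered libraries exceeded 0.1 (-0.456 to 0.333). Libraries of unlike number were not compared, so these values cannot decide it. With the replicate block 2 members passed in KYDS against CON and 8 in KYDS+BGZ_L against BGZ_L.

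With no scaling the median fold change of all genes moved to 1.03 in KYDS against CON and 0.63 in KYDS+BGZ_L against BGZ_L; with hepatocyte scaling it was -0.69 and -0.63. The split of all genes into higher and lower, 388 and 356 in KYDS against CON, became 5867 and 66 with no scaling, 75 and 17 with nuclear TPM, 58 and 2746 with hepatocyte scaling, 17 and 4 with the covariate, 204 and 160 with no filter, 144 and 113 without CON 2 and BGZ_L 3, and 123 and 135 with only the 2 groups. For KYDS+BGZ_L against BGZ_L, 1043 and 1015 became 1809 and 233 with no scaling, 358 and 219 with nuclear TPM, 188 and 2819 with hepatocyte scaling, 300 and 367 with the covariate, and 648 and 718 without CON 2 and BGZ_L 3. With 1 library left out the totals were 221 to 1067 and 1103 to 2525. Of all genes 15 passed in KYDS+BGZ_L against KYDS and 3 to 21 did so in other settings.

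Fold changes changed sign as follows. In KYDS against CON they were -0.66 for Apoa2 with hepatocyte scaling and, with the covariate, -0.39 for Apoa2, -0.21 for Apoa5 and -0.20 for Apoe. In KYDS+BGZ_L against BGZ_L, Apoa2 was -0.0236 with hepatocyte scaling. In KYDS+BGZ_L against KYDS, no scaling gave -0.23 for Apoa1, -0.34 for Apoa5, -0.26 for Apoc3, -0.0110 for Apoe and -0.28 for Mttp. Nuclear TPM gave -0.0508 for Apoa1, -0.16 for Apoa5, -0.0853 for Apoc3 and -0.12 for Mttp there. Hepatocyte scaling gave 0.15 for Apoa2 and 0.0207 for Apoc2, and the covariate 0.0981 and 0.0497. In the interaction, no scaling gave -0.10 for Apoa1, -0.0480 for Apoa4, -0.33 for Apoc2 and -0.0913 for Mttp, hepatocyte scaling gave 0.0237 for Apob and the covariate 0.34 for Apob. None of these fits called the gene. With 1 library left out, Apoa2 ranged from -0.0300 to 0.71 in KYDS against CON. In KYDS+BGZ_L against KYDS the ranges were -0.40 to 0.66 for Apoa1, -0.38 to 0.17 for Apoa2, -0.12 to 0.25 for Apoa5, -0.80 to 1.28 for Apoc1, -0.60 to 0.16 for Apoc2, -0.25 to 0.54 for Apoc3, -0.12 to 0.80 for Apoe and -0.0800 to 0.37 for Mttp. Apob ranged from -0.34 to 0.0485 in BGZ_L against CON. In the interaction the ranges were -0.17 to 0.89 for Apoa1, -0.0168 to 0.999 for Apoa4, -0.32 to 0.13 for Apob and -0.22 to 0.54 for Apoc2.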

Other observations

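Apoc4, the apolipoprotein gene that lies between Apoc2 and Apoc1 in RefSeq's order, did not share the near-zero levels of Apoc1. In BGZ_L 1 to 5 it had 628, 269.8, 265, 587 and 630.1 TPM, where Apoc1 had at most 8.08 TPM. In CON 1, CON 3 and CON 4 it had 1383, 198 and 909.7 TPM, where Apoc1 had 0.781, 2.06 and 1.33 TPM. Apoc4 averaged 1038 ± 507 TPM in KYDS and 811 ± 433 TPM in CON livers (SD, n = 5 each), a log2 difference of 0.40 ± 0.51 that did not pass (limma, adjusted p = 0.668). It averaged 984 ± 399 TPM in KYDS+BGZ_L and 476 ± 191 TPM in BGZ_L livers (1.07 ± 0.51, adjusted p = 0.154). The genes were set side by side after their values were seen.

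A1cf, the RNA-binding partner of Apobec1, averaged 13.4 ± 3.43 TPM in KYDS+BGZ_L and 30.8 ± 23.3 TPM in BGZ_L livers (log2 -0.91 ± 0.41, adjusted p = 0.129 in limma). BGZ_L 3, at 68.9 TPM, is the highest of the 20 libraries and has a scaling factor of 0.348.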
